A study of Mus musculus with 2 samples.

Results

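The 9 genes of the TREM2 receptor and its signalling chain, of 32285 genes in the count tables, were followed in microglia, the resident macrophages of the central nervous system, sorted from the lumbar spinal cord of mice. They were chosen by symbol and by role and comprised the receptor Trem2, the adaptors Tyrobp and Hcst, the kinases Lyn and Syk, the effectors Plcg2, Vav1 and Pik3cd, and the lipid phosphatase Inpp5d. All 9 had UMIs in both libraries, and none was lost to a filter on low counts. The unique molecular identifier (UMI) marks each captured RNA molecule, so a count is a number of molecules read from their 3' end and is not divided by gene length. Levels are given as CPM, the UMIs of a gene for every 1000000 UMIs of the cells summed.

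The 2 libraries came from 2 genotypes, with 1 library each. The control library is labelled WT, and control mice of this experiment are described as Eif4ebp1 fl/fl, which carry the conditional allele without Cre. The 4E-BP1-cKO mice were Eif4ebp1 fl/fl:TMEM119CreERT2, in which a Cre recombinase driven from the Tmem119 promoter, a microglial promoter, and activated by 4-hydroxytamoxifen removes 4E-BP1, a repressor of translation initiation. 4-hydroxytamoxifen was injected intraperitoneally on postnatal days 4 to 9, and mice were 8 to 10 weeks old. Males were used outside the behavioural and protein synthesis labelling experiments. The sources used here do not give whether both genotypes of this experiment were injected, or how many mice made up a library. Cells were released with collagenase IV and mechanical dissociation, cleaned on Percoll, and sorted as CD11b-high, CD45-low and CX3CR1-high.

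Barcodes with more than 300 detected genes and less than 5% mitochondrial UMIs were kept, which left 1147 of 1216 control barcodes with 4803562 UMIs and 445 of 474 4E-BP1-cKO barcodes with 1734332 UMIs. The median depth was 3053 UMIs per control cell and 2776 UMIs per 4E-BP1-cKO cell, and the libraries shared 0 barcodes. At least 3 of 9 microglial markers were detected in 94.2% of control and 90.3% of 4E-BP1-cKO cells, while at least 3 markers of border-associated macrophages were found in 2 and 1 cells. Eif4ebp1 itself had 95 UMIs in control cells (19.8 CPM) and 51 UMIs in 4E-BP1-cKO cells (29.4 CPM). Reads from a 3' method do not reliably report on the removal of an internal exon, so these counts do not check the deletion. With 1 library per genotype there is no replicate spread and no test. Intervals are 95% exact intervals that cover counting error only, Poisson for levels and ratios of levels and Clopper-Pearson for shares of cells.

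TREM2 is a lipid- and lipoprotein-binding receptor of the immunoglobulin superfamily with almost no signalling sequence of its own. It signals through TYROBP (DAP12), whose cytoplasmic ITAM is phosphorylated by Src-family kinases and then recruits SYK, and through HCST (DAP10), which recruits phosphatidylinositol 3-kinase. SYK activates PLCG2, the VAV exchange factors and phosphatidylinositol 3-kinase, while INPP5D (SHIP1) dephosphorylates the lipid that the kinase makes and thereby restrains the chain. In microglia this chain is known for its part in survival, phagocytosis and the transition to disease-associated states, and variants of several of its genes are linked to dementia.

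Promoter sequence is shown for 4 members, namely Trem2 and Hcst, which were higher in ribosome-rich cells, Inpp5d, which was lower there, and Vav1, which like Hcst and Inpp5d holds the motif marked here. Each run is the 250 bases before the RefSeq start of the gene in build GRCm38.p6, read 5' to 3' on the strand of the gene. Trem2 lies on the plus strand at chr17:48346151-48346400 and Hcst on the minus strand at chr7:30419855-30420104. Vav1 lies on the plus strand at chr17:57278850-57279099 and Inpp5d on the plus strand at chr1:87620062-87620311. Capitals mark AGGAAGT, a core sequence bound by ETS factors such as PU.1, searched on both strands. The motif was picked after the sequences had been read.
Trem2: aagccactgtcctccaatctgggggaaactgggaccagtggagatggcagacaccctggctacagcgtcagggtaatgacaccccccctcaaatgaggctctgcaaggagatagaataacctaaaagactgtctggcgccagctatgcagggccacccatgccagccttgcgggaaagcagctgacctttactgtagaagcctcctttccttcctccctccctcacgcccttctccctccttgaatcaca
Hcst: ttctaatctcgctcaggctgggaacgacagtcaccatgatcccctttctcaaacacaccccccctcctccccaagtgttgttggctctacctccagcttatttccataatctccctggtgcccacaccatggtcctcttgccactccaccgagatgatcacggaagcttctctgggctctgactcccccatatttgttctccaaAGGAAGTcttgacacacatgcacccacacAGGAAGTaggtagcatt
Vav1: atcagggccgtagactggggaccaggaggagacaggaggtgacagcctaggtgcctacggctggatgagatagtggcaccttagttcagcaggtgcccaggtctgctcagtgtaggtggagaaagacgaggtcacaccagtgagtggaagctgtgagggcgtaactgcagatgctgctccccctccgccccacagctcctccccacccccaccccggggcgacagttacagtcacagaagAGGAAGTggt
Inpp5d: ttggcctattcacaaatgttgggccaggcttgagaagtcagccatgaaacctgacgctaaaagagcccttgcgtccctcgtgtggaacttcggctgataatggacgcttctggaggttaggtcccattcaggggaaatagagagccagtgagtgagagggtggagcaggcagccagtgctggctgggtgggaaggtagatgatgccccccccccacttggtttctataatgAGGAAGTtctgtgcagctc
Windows were found for 7 of the 9 members, and Tyrobp and Lyn had no entry. AGGAAGT occurred in 7.69% of all 32851 windows of this length. Hcst held 2 matches, which began 46 and 17 bases before the start, Inpp5d held 1 at 19 bases, and Vav1 held 1 at 10 bases. Trem2 held 0 matches in this window, as did each window of Syk, Plcg2 and Pik3cd. None of the members' windows held TATAAA, which 12.4% of all windows contained. The motif was thus present in genes of both directions of change. Tyrobp and Hcst are neighbours on chromosome 7 of the same build, with 129 bases between the end of one (7, 30413782 to 30417582) and the other (7, 30417712 to 30419854).

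Between the libraries, the receptor and the adaptors were level or slightly higher in 4E-BP1-cKO cells, and most genes further down the chain were level or slightly lower. None of the 9 reached a 1.5-fold difference in either direction, where 5.34% of 11784 genes with at least 20 UMIs were higher and 13.5% lower by that much. The median log2 ratio of the members was -0.00, beside -0.06 over all these genes. The library ratio also went with the genomic span of a gene. Ribosomal protein genes left out, its median went from 1.085 for genes under 5 kb to 0.874 for genes of 100 kb or more. Over the 9 members, which share both libraries, Spearman's rho between span and ratio was -0.90. The receptor and adaptors are short genes and the others long, and the part of span was not tested.

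Trem2 had 3446 UMIs among control cells and 1418 among 4E-BP1-cKO cells, or 717 and 818 CPM. The ratio of 4E-BP1-cKO over control was 1.14 (1.07 to 1.21). Its partner Tyrobp had 806 CPM in control and 861 in 4E-BP1-cKO cells, a ratio of 1.07 (1.005 to 1.13). Both intervals lay above 1 by little, and both are intervals on counting alone. Hcst, the second adaptor, was rare, with 66 UMIs in control and 31 in 4E-BP1-cKO cells. Its levels were 13.7 and 17.9 CPM and their ratio was 1.30 (0.820 to 2.02), so a difference was not detectable at this depth.

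Among the kinases, Lyn, a Src-family kinase that can phosphorylate ITAMs, was lower in 4E-BP1-cKO cells at 1132 CPM against 1338, a ratio of 0.846 (0.804 to 0.890). Syk, the kinase that docks on the phosphorylated ITAM, was level at 224 in control and 234 in 4E-BP1-cKO cells, a ratio of 1.04 (0.929 to 1.17). Over all cells the intervals of the 2 kinases did not overlap, and these intervals cover counting error only.

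Of the effectors, Plcg2, the phospholipase that makes the messengers for calcium release and protein kinase C, had the lowest ratio of the 9, at 0.782 (0.692 to 0.882), from 254 CPM in control and 198 in 4E-BP1-cKO cells. Vav1, a guanine nucleotide exchange factor, stood at 170 in both libraries, with a ratio of 0.998 (0.870 to 1.14). Pik3cd, the catalytic p110-delta subunit, had 147 and 125 CPM and a ratio of 0.849 (0.726 to 0.990). Inpp5d, the phosphatase that opposes it, had 977 and 867, a ratio of 0.887 (0.836 to 0.940).

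**Figure D1:**
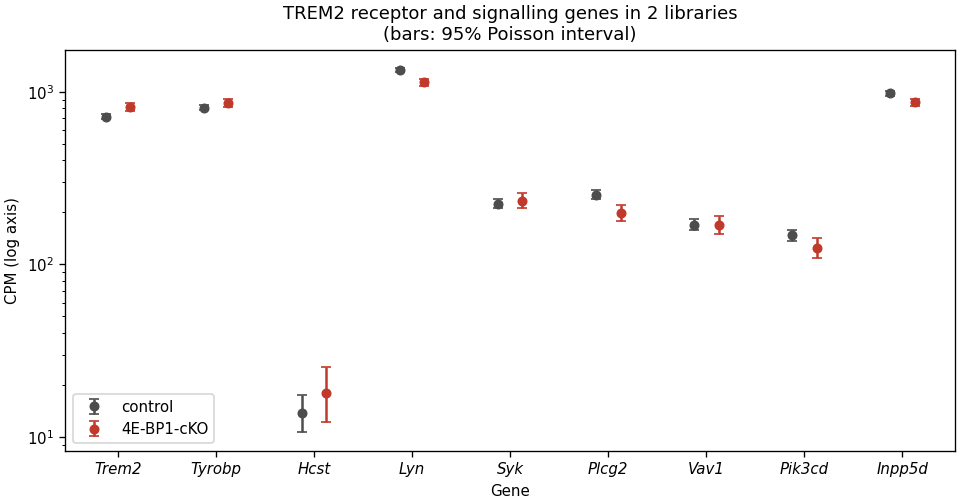
Level of each gene in CPM on a log axis, with control in grey and 4E-BP1-cKO in red; points are 1 library each and bars are 95% Poisson intervals. The paired points lie close for every gene, from Plcg2 at 254 and 198 to Hcst at 13.7 and 17.9.

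The share of cells with a UMI was read beside the levels. Trem2 was detected in 67.1% (64.3 to 69.9) of control and 71.0% (66.6 to 75.2) of 4E-BP1-cKO cells, and Tyrobp in 63.1% (60.2 to 65.9) and 66.3% (61.7 to 70.7). Spreading the same UMIs evenly over the cells by depth would have given 82.2% and 80.7% for Trem2 and 84.6% and 81.7% for Tyrobp. Both transcripts were thus concentrated in fewer cells than even spreading gives. For Plcg2 the observed and even shares were 52.0% and 55.3% in control cells, and 41.1% and 45.4% in 4E-BP1-cKO cells, which lie closer together. Lyn was detected in 86.1% and 83.6% of cells, Inpp5d in 83.3% and 75.5%, Syk in 43.9% and 41.6%, Vav1 in 40.6% and 37.3%, Pik3cd in 35.9% and 30.6%, and Hcst in 5.14% and 6.07%. As a measure of free RNA, the astrocyte gene Aqp4 was detected in 1.83% and 1.57% of cells and the oligodendrocyte gene Mobp in 0.523% and 0.674%. All members but Hcst lay far above the shares of Aqp4 and Mobp. The 4 oligodendrocyte markers, Mobp among them, together stood at 56.2 CPM in control and 103 CPM in 4E-BP1-cKO cells. Pik3cd, the lowest member after Hcst, stood at 147 and 125 CPM, so the distance depends on the genes chosen.

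After each cell was thinned to 872 UMIs, dropping the 89 control cells and 70 4E-BP1-cKO cells that were shallower, Trem2 was detected in 38.5% (35.5 to 41.5) of control and 44.5% (39.4 to 49.7) of 4E-BP1-cKO cells, and Tyrobp in 37.0% (34.0 to 39.9) and 44.0% (38.9 to 49.2). Lyn went the other way, at 66.6% (63.7 to 69.5) and 55.7% (50.5 to 60.8). These shares are over all cells, and those of Trem2 and Tyrobp within ranges of cells are given below with co-detection. There the Trem2 share was not higher in every range of 4E-BP1-cKO cells, and the Tyrobp shares lay close together. Hcst fell to 0.756% and 1.33%, in control cells close to the 0.567% of Aqp4.

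The cells differed widely in how much of their RNA coded for ribosomal proteins, and the members differed along that axis. In each library Trem2, Tyrobp and Hcst were at least 1.5-fold higher in the cells richest in ribosomal protein RNA than in the poorest, while Inpp5d was lower by that much and none of the kinases or effectors was higher. For Hcst this rests on few UMIs, and in 4E-BP1-cKO cells the interval of its ratio began at 1.02. Of all genes, 22.0% were higher and 36.3% lower by that much in control cells, and 22.7% and 39.2% in 4E-BP1-cKO cells, so the counts of members are near the background.

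Cells were placed in 3 ranges by the share of their UMIs from 83 ribosomal protein genes, called poor (under 2.5%), usual (2.5 to 8%) and high (8% or more). The control library had 621 poor, 383 usual and 143 high cells, or 54.1, 33.4 and 12.5%. The 4E-BP1-cKO library had 195, 163 and 87, or 43.8, 36.6 and 19.6%. Within 0.5 percentage points of the lower limit lay 9.33% of control and 7.42% of 4E-BP1-cKO cells, so some cells are placed by a small margin. The ranges are cuts on 1 measure and are not named as cell types. Whether the measure is continuous or falls into groups was not tested. Several other measures moved with the range. Median depth rose from 2358 through 5154 to 6901 UMIs in control cells and from 1898 to 4716 and 4683 in 4E-BP1-cKO cells. The nuclear RNA Malat1 fell from 4.85 through 3.08 to 2.13% of UMIs in control cells and from 5.07 through 3.37 to 2.82% in 4E-BP1-cKO cells. At least 3 microglial markers were found in 92.4 and 94.8% of the poor and usual control cells and all 143 high ones, and in 86.7, 90.2 and 98.9% of 4E-BP1-cKO cells. The summed level of the 9 microglial markers was 6407, 12487 and 10910 CPM in the poor, usual and high control cells, and 6160, 11483 and 9884 in 4E-BP1-cKO cells. The part of depth, Malat1, marker detection and marker level in the members' differences was not tested. The thinned cells used below have equal UMIs and so equal weight, but they keep the range set at full depth. They cannot show whether shallow cells differ in RNA makeup.

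Tyrobp differed widely between the ranges. In control cells it stood at 252, 954 and 1404 CPM in the poor, usual and high range, and in 4E-BP1-cKO cells at 241, 914 and 1379. High over poor was 5.57 (4.99 to 6.22) in control and 5.72 (4.67 to 7.06) in 4E-BP1-cKO cells. The 2 libraries rose step by step and lay within each other's intervals in every range.

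Trem2 rose and then levelled off. It stood at 328, 900 and 977 CPM in control and at 380, 949 and 1021 in 4E-BP1-cKO cells. High over poor was 2.97 (2.68 to 3.30) and 2.69 (2.25 to 3.21), whereas high over usual was only 1.08 (1.004 to 1.17) and 1.07 (0.957 to 1.21). The summed microglial markers given above also rose from the poor to the usual range and not from there to the high range. The receptor thus reached its level in the usual range, and the adaptor kept rising, with high over usual of 1.47 (1.38 to 1.58) and 1.51 (1.36 to 1.68). The number of Tyrobp UMIs per Trem2 UMI accordingly went from 0.767 through 1.06 to 1.44 in control cells and from 0.634 through 0.962 to 1.35 in 4E-BP1-cKO cells.

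Hcst had 12, 23 and 31 UMIs in the control ranges and 5, 11 and 15 in the 4E-BP1-cKO ranges, or 7.17, 11.0 and 29.95 CPM and 10.9, 13.7 and 32.0. High over poor was 4.18 (2.09 to 8.93) in control and 2.95 (1.02 to 10.4) in 4E-BP1-cKO cells. Hcst is abundant in NK and T cells, and the 6 markers of these cells had 12 UMIs in the 4E-BP1-cKO high range and 0 in the control high range. Leaving out the 5 control and 3 4E-BP1-cKO barcodes with at least 3 markers of any other cell type, which held 1 and 3 Hcst UMIs, gave 4.11 and 2.39. The 5 control barcodes held only 1 Hcst UMI, so leaving them out could hardly change the control ratio. The filter also misses cells with fewer markers, and the part of NK and T cells was not tested. The 4E-BP1-cKO ratio was smaller without its 3 barcodes, and with them its interval already began at 1.02, so that rise is not well placed.

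The kinases were flat or lower. Lyn stood at 1437, 1378 and 1096 CPM in control and 1197, 1260 and 848 in 4E-BP1-cKO cells, with high over poor of 0.762 (0.710 to 0.818) and 0.708 (0.621 to 0.807). Syk stood at 266, 190 and 225 in control and at 337, 202 and 188 in 4E-BP1-cKO cells. Its high over poor ratio was 0.845 (0.718 to 0.992) in control and 0.558 (0.425 to 0.730) in 4E-BP1-cKO cells. In the thinned cells the Syk ratios were 0.640 and 0.288, so the control value passed 1.5-fold there.

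Plcg2 fell from 310 through 250 to 169 CPM in control cells and from 226 through 209 to 154 in 4E-BP1-cKO cells, with ratios of 0.545 (0.457 to 0.648) and 0.681 (0.497 to 0.928). Pik3cd went from 191 through 138 to 95.6 in control cells, a ratio of 0.5004 (0.395 to 0.629), and from 133 through 139 to 93.96 in 4E-BP1-cKO cells, a ratio of 0.709 (0.470 to 1.06). Vav1 changed least among the effectors of the control library, from 180 to 150 with a ratio of 0.833 (0.682 to 1.01), and went from 224 to 143 in 4E-BP1-cKO cells with a ratio of 0.640 (0.463 to 0.878). In thinned control cells its ratio was 1.08, so its direction in control cells differed there.

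Inpp5d was lower in the high range of both libraries. It stood at 1276, 941 and 566 CPM in control cells and at 1099, 875 and 624 in 4E-BP1-cKO cells, with high over poor of 0.444 (0.404 to 0.486) and 0.567 (0.490 to 0.656). There were 3.88 Inpp5d UMIs for each Trem2 UMI in poor control cells and 0.580 in high control cells, and 2.89 and 0.611 in 4E-BP1-cKO cells.

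**Figure D2:**
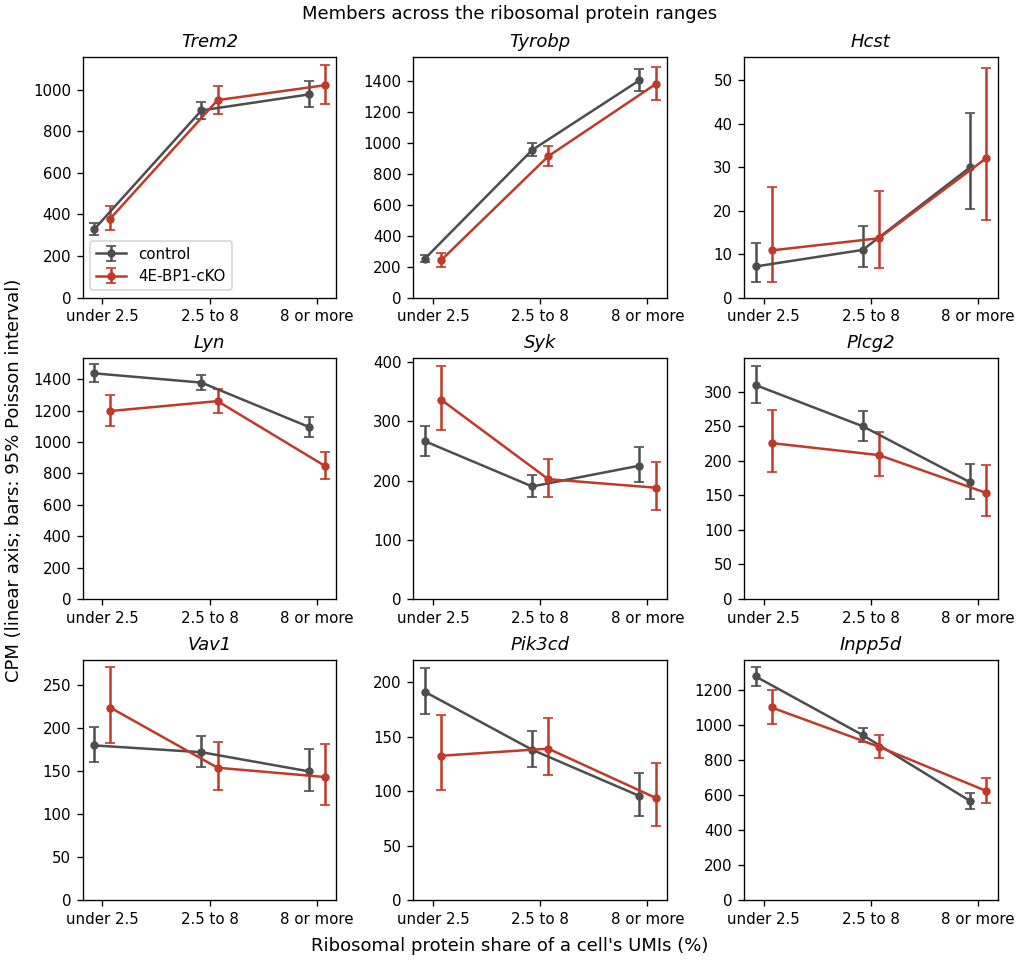
Level of each gene in CPM (linear axis from 0) in the 3 ranges of ribosomal protein share, with control in grey and 4E-BP1-cKO in red; bars are 95% Poisson intervals. Tyrobp climbs from 252 to 1404 in control cells and Inpp5d falls from 1276 to 566, and the 4E-BP1-cKO lines run alongside.

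Counted at 1.5-fold, 3 of 9 members were higher and 3 lower in the control high range, where 22.0% of 9524 genes were higher and 36.3% lower. In 4E-BP1-cKO cells 3 were higher and 3 lower, where 22.7% of 5948 genes were higher and 39.2% lower. The members' shares are thus near the background in both libraries, and the count says little beyond which members fell on which side. The higher genes were Trem2, Tyrobp and Hcst in each library. The lower genes were Plcg2, Pik3cd and Inpp5d in control and Syk, Vav1 and Inpp5d in 4E-BP1-cKO cells. The median log2 ratio of the members was -0.26 in control, equal to that of all genes, and -0.50 in 4E-BP1-cKO cells, beside -0.31 for all genes. CPM includes the ribosomal protein UMIs that define the ranges, which lowers every other gene in the high range. Scaled without ribosomal protein and mitochondrial UMIs, 3 members were lower in control and 2 in 4E-BP1-cKO cells. Vav1 was then at 0.7265 in 4E-BP1-cKO cells and no longer among them, and Syk was at 0.950 in control cells, against 0.845.

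Genomic span moved with this split. The receptor and adaptors are compact genes of 5.88 kb (Trem2), 3.80 kb (Tyrobp) and 2.14 kb (Hcst), whereas the other 6 run from 50.1 kb (Vav1) to 136.9 kb (Plcg2). Over all genes but the ribosomal protein genes, the median high over poor ratio fell with span. In control cells it went from 2.06 under 5 kb through 1.37, 1.03, 0.809 and 0.655 to 0.545 at 100 kb or more. In 4E-BP1-cKO cells it went from 2.46 to 0.513. These classes of span were added after the data had been seen. Set against genes of like span, Tyrobp at a log2 ratio of 2.48 lay above the upper quartile of genes under 5 kb (1.83) in control cells and at 2.52 above that in 4E-BP1-cKO cells (2.24). Trem2 at 1.57 lay above the upper quartile of genes of 5 to 10 kb (1.25) in control cells, and at 1.43 it lay level with that of 4E-BP1-cKO cells (1.42). Inpp5d at -1.17 lay between the median (-0.87) and the lower quartile (-1.21) of genes of 100 kb or more in control cells, and at -0.82 it lay above the median (-0.96) in 4E-BP1-cKO cells. Lyn lay above the upper quartile of that class in both libraries, at -0.39 beside -0.49 and at -0.50 beside -0.58. The sources used here do not say whether introns were counted, and the part of gene span in these ratios was not tested.

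**Figure D3:**
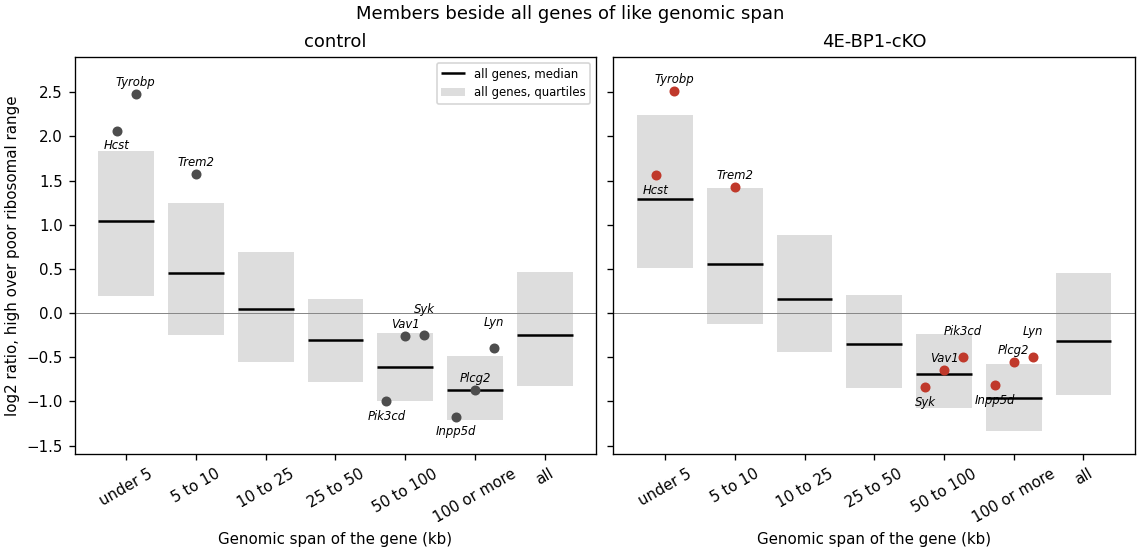
log2 ratio of the high over the poor ribosomal range (vertical axis) by genomic span in kb (classes on the horizontal axis), for control on the left and 4E-BP1-cKO on the right. Grey boxes span the quartiles of all genes but the ribosomal protein genes, black lines are their medians and points are the 9 members. The medians fall from the shortest to the longest class, and the last box on the right holds genes of all spans together. Tyrobp lies above the quartile box of its class in both panels at 2.48 and 2.52, and Plcg2 at -0.87 lies on the control median of its class.

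Library ratios were also read within the ranges. Tyrobp, at 1.07 over all cells, was at 0.957 (0.769 to 1.18), 0.958 (0.879 to 1.04) and 0.983 (0.894 to 1.08) within the poor, usual and high range. All 3 within-range ratios were below 1 although the ratio over all cells was above 1, and the 4E-BP1-cKO library held fewer poor cells. Weighting the control ranges to the UMI makeup of the 4E-BP1-cKO library, a step added after the data had been seen, gave a ratio of 0.968. Trem2 was at 1.16 (0.970 to 1.37), 1.05 (0.969 to 1.15) and 1.05 (0.935 to 1.17), and at 1.06 with equal makeup, against 1.14 over all cells. Hcst was at 1.52 (0.418 to 4.62), 1.24 (0.547 to 2.65) and 1.07 (0.536 to 2.04), intervals too wide to place it. Lyn remained below 1 in each range, at 0.833 (0.758 to 0.914), 0.914 (0.850 to 0.982) and 0.774 (0.688 to 0.868), and was at 0.859 with equal makeup. Plcg2 was likewise below 1 in each, at 0.729 (0.585 to 0.901), 0.833 (0.696 to 0.993) and 0.909 (0.681 to 1.20). The lower Lyn and Plcg2 were thus as large, or nearly so, with the makeup held equal, at 0.859 and 0.812.

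Inpp5d was lower in 4E-BP1-cKO cells of the poor range, at 0.861 (0.780 to 0.950), and not in the high range, at 1.10 (0.954 to 1.27). Syk was higher in the poor range, at 1.26 (1.05 to 1.52), at 1.065 (0.882 to 1.28) in the usual range and at 0.835 (0.646 to 1.07) in the high range. In the usual and high ranges the intervals of Syk and Lyn overlapped. The share of poor cells with a Syk UMI was not higher, at 40.9% in control and 38.5% in 4E-BP1-cKO cells. Over all thinned cells the Syk library ratio was 0.953. Pik3cd was at 0.693 (0.518 to 0.914) in the poor range and 1.01 (0.803 to 1.26) in the usual range. With 1 library a genotype, none of these differences between ranges was tested.

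**Figure D4:**
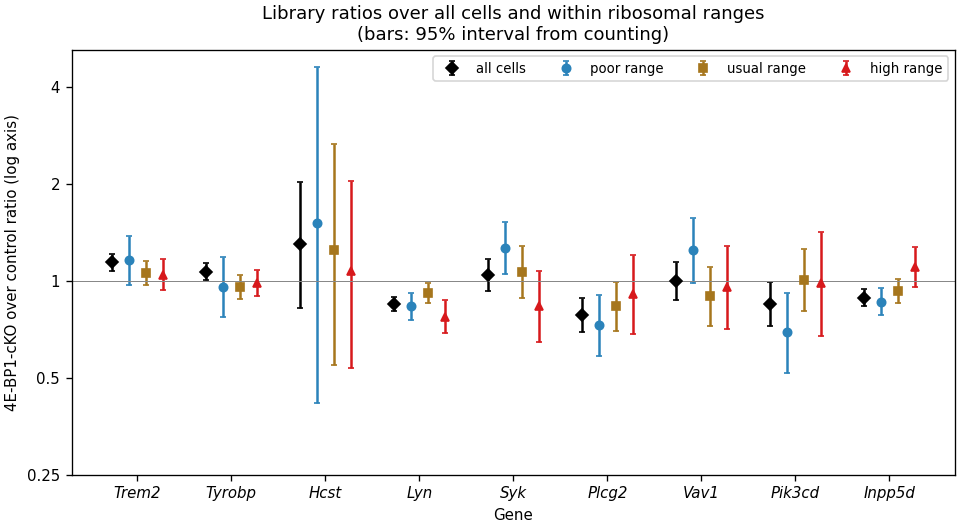
Ratio of 4E-BP1-cKO over control (log axis) for each gene over all cells (black) and within the poor, usual and high ribosomal range (blue, brown, red); bars are 95% intervals from counting. Tyrobp moves from 1.07 over all cells to between 0.957 and 0.983 within ranges, while Lyn stays between 0.774 and 0.914.

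Immediate early genes, such as Fos, Jun and Egr1, are induced within minutes of a stimulus and also by warm enzymatic dissociation of tissue. The cells of the usual and high ranges were parted at the median share of UMIs from 19 such genes, 2.54%, which gave 280 low and 246 high control cells and 108 low and 142 high 4E-BP1-cKO cells. Median depth also differed, at 5064 and 6002 UMIs in control and 3644 and 5544 in 4E-BP1-cKO cells, and its part was not tested. Between low and high cells the members moved less than between the poor and high ribosomal ranges. This says little about the members, since all genes also passed 1.5-fold less often. In control cells 22.0% were higher and 36.3% lower between those ranges. The comparisons also differ in kind, as the low and high cells adjoin and the usual range was left out between poor and high. None of 9 passed 1.5-fold in control cells, where 7.52% of genes were higher and 13.6% lower. In 4E-BP1-cKO cells 0 were higher and 1 was lower, where 12.7% of genes were higher and 16.3% lower. That gene was Inpp5d, at 996 CPM in the low cells and 659 in the high cells, a ratio of 0.662 (0.584 to 0.751). Its ratio was 0.681 with the highest tercile against the lowest, 0.734 with all kept cells and 0.678 with scaling without the early genes, so it did not reach 1.5-fold in these 3 settings. In control cells Inpp5d stood at 934 and 686, a ratio of 0.734 (0.678 to 0.795). Tyrobp was lower in the high cells of both libraries, at 0.841 (0.785 to 0.900) and 0.832 (0.746 to 0.928). When the poor range was included, Tyrobp was at 1.01 and 1.04, so its direction depends on which cells enter. Trem2 was at 0.960 (0.891 to 1.03) and 0.933 (0.831 to 1.05), and when the poor range was included at 1.23 and 1.36, on the other side of 1. Lyn was at 0.892 (0.838 to 0.950) and 0.957 (0.859 to 1.07). The intervals of the other 5 members contained 1 in both libraries.

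Clusters were built from the cells of both libraries without the 9 members and the 65 other genes of the chain, so that the members' levels did not form them. Of 9 clusters, 8 held at least 20 cells of each library. The clusters carry numbers only. Cluster 4 was shallow, with a median of 763 UMIs in control and 768 in 4E-BP1-cKO cells. Genes leading cluster 3 included the early gene Fos, the chemokine gene Ccl3 and the heat shock gene Hspa1a. Those of cluster 6 included the chemokine gene Cxcl2, the metallothioneins Mt1 and Mt2 and the lipase gene Lpl, and those of cluster 9 the lipid carrier Apoe and the lysozyme gene Lyz2. Clusters 1, 2, 7 and 8 had a median ribosomal share between 0.960 and 1.34% in both libraries and the other clusters between 4.00 and 18.9%.

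Trem2 was highest in cluster 3 among the 8, at 1071 CPM in control and 1195 in 4E-BP1-cKO cells, and lowest in cluster 8, at 252 and 251. The order in control cells ran from cluster 3 through 5 (919), 6 (788), 4 (629), 7 (487), 1 (294), 2 (292) and 8 (252). The intervals of clusters 1, 2 and 8 overlapped, so their order is not resolved at this depth. In 4E-BP1-cKO cells, cluster 3 was followed by 5 (1018), 6 (877), 4 (654), 7 (603), 1 (486), 2 (333) and 8 (251), which is the control order, although the intervals of every pair of neighbours overlapped. Tyrobp was likewise highest in cluster 3, at 1229 and 1249, and lowest in cluster 2, at 183 and 184, a pooled fold of 6.73. The small cluster 9, with 25 control and 17 4E-BP1-cKO cells, had Tyrobp at 2347 (2105 to 2609) and 1928 (1648 to 2243), both above cluster 3. Its Trem2 was at 1450 (1262 to 1659) in control cells, above cluster 3, and at 964 (769 to 1194) in 4E-BP1-cKO cells, below clusters 3 and 5. Cluster 9 also had the highest ribosomal share, with medians of 18.1 and 18.9%.

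Cluster 9 held the highest Hcst level too, at 5 UMIs (34.2 CPM) in control and 8 UMIs (91.8 CPM) in 4E-BP1-cKO cells, and 35.3% of its 4E-BP1-cKO cells had an Hcst UMI. This cluster held 2 of the 3 4E-BP1-cKO barcodes with markers of another cell type, and 5 Hcst UMIs were left in it without them. Among the larger clusters Hcst was at most 27.9 CPM in control, in cluster 6 with 26 UMIs, and 6 of the 8 had 10 UMIs or fewer. Pik3cd had 9 UMIs in control and 1 UMI in 4E-BP1-cKO cells of cluster 9, which are too few to compare.

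Inpp5d was highest in cluster 1, at 1621 CPM in control and 1457 in 4E-BP1-cKO cells, and lowest in cluster 6, at 447 and 472, a pooled fold of 3.50. Its order was not that of Trem2 reversed, since cluster 5 was high for both, with Inpp5d at 1301 and 1337, and cluster 2 was low for both, at 749 and 863. Syk was highest in cluster 2 over both libraries, at 363 CPM, against 174 in cluster 3, a fold of 2.08. In 4E-BP1-cKO cells its highest level was in cluster 8, at 454 (352 to 577), where control cells had 275 (215 to 348). Pik3cd was highest in cluster 7 of the control library, at 271 (217 to 335), where the 4E-BP1-cKO library had 9 UMIs and 147 (67.1 to 279). Plcg2 ranged 2.02-fold between clusters 8 and 6, Vav1 1.64-fold between the same clusters, and Lyn 1.41-fold between clusters 5 and 7. Lyn was thus the most even of the 9 across clusters.

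**Figure D5:**
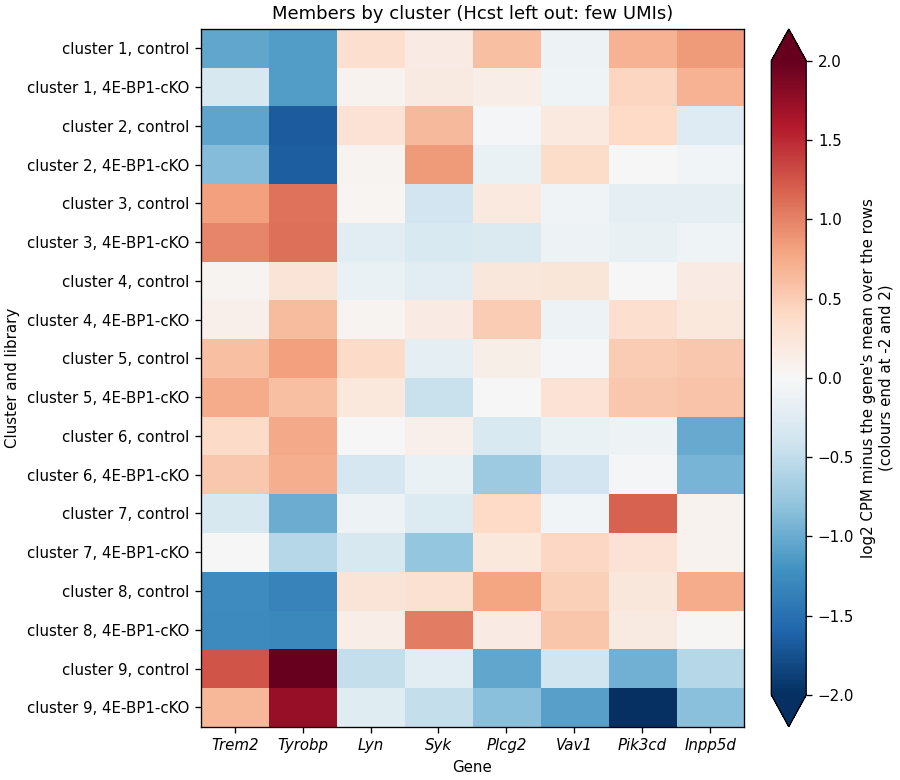
Levels of 8 members by cluster and library, as log2 CPM minus the gene's mean over the 18 rows, red for above and blue for below, with colours ending 2 units from the mean. Trem2 and Tyrobp are red in clusters 3, 5, 6 and 9 of both libraries and Inpp5d is blue in cluster 6; the darkest blue cell, Pik3cd in cluster 9 of 4E-BP1-cKO, rests on 1 UMI.

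Across the 16 points given by 8 clusters in 2 libraries, Trem2 and Tyrobp levels had a Pearson r of 0.93 on the log scale. Trem2 had an r of -0.74 with Syk, and Plcg2 an r of 0.75 with Inpp5d. These values are descriptions only, since points of 1 library share its depth and points of 1 cluster share its definition. Of 4886 genes with at least 200 UMIs, those whose pattern was most like Trem2 were Tmem176b (r 0.98), C1qc (0.97), Cd81 (0.96), C1qa (0.95) and Pdia6 (0.95). Those most like Tyrobp were Ctss, B2m, Cst3 and Aif1, each at 0.98, and Hmgb1 at 0.96. C1qa and C1qc encode chains of complement C1q, Ctss a lysosomal protease and Cst3 the protease inhibitor cystatin C. The nearest gene was Plek for Syk (0.91), Nek7 for Inpp5d (0.95), Pacs1 for Plcg2 (0.88), Gm35154 for Lyn (0.85), Dnm2 for Vav1 (0.83) and Acap2 for Pik3cd (0.81).

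Whether receptor and adaptor were found in the same cells was read in the thinned cells. In the poor range Trem2 was found in 23.97% of control and 35.2% of 4E-BP1-cKO cells. In the high range the shares were 57.35 and 53.5%. In the usual range the share was 58.5% in control cells and lower in 4E-BP1-cKO cells. Tyrobp was found in 21.51 and 22.01% of poor, 54.6 and 55.4% of usual and 65.4 and 67.4% of high cells. These differences between the libraries were not tested. Tyrobp was detected in 50.1% (45.2 to 55.1) of control cells with a Trem2 UMI and in 28.7% (25.3 to 32.4) of those without, and in 55.1% (47.2 to 62.8) and 35.1% (28.6 to 42) in the 4E-BP1-cKO library. Within the poor range the control shares were 24.7% (17.9 to 32.5) and 20.5% (16.9 to 24.5), with overlapping intervals, within the usual range 61.8% (54.3 to 68.8) and 44.6% (35.9 to 53.6), and within the high range 70.5% (59.1 to 80.3) and 58.6% (44.9 to 71.4). The 4E-BP1-cKO shares were 28.6 and 18.4% in the poor, 63.1 and 47.7% in the usual and 76.1 and 57.5% in the high range. The share was higher with a Trem2 UMI in all 6, but the intervals separated in the usual control range alone. The shares lay closer together within the poor range than over all control cells, a comparison that was not tested. Lyn was found in 66.8% of control cells with and 66.5% of those without a Trem2 UMI. Inpp5d was found in 50.1% (45.2 to 55.1) of control cells with a Trem2 UMI and 56.8% (52.9 to 60.7) of those without. Within the poor, usual and high range the control shares were 58.9 and 60.7%, 53.6 and 50.8%, and 25.6 and 39.7%, with overlapping intervals in each. Over all 4E-BP1-cKO cells they were 48.5 and 51.0%. Reading cells by co-detection was added after the data had been seen.

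The wider chain was taken from 7 lists of 65 genes, of which 59 had at least 20 UMIs and 5 (Trem1, Trem3, Sirpb1a, Pilrb1 and Clu) had 0 UMIs. Between the libraries 3 of the 59 were higher by 1.5-fold and 0 lower, beside 5.34% and 13.5% of all genes, and the median log2 ratio was -0.06, as for all genes. The 3 were Apoe, Cd300lb and Treml2. Apoe, the lipid carrier that TREM2 binds, stood at 883 CPM in control and 1525 in 4E-BP1-cKO cells, a ratio of 1.73 (1.64 to 1.81). It also differed widely between the poor and high ranges, at 508 and 2250 CPM in control cells, a ratio of 4.43 (4.09 to 4.79), and at 584 and 4053 in 4E-BP1-cKO cells, a ratio of 6.94 (6.10 to 7.91). Cd300lb, a receptor that pairs with TYROBP, had 17 and 18 UMIs, a ratio of 2.93 (1.43 to 6.06). Treml2, named after its value was seen, had 15 and 11 UMIs and a ratio of 2.03 (0.844 to 4.73), which includes 1.

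Another list held ITAM-bearing or TYROBP-paired genes together with Fc receptors and Csf1r. Of these, 4 of the 6 tested were higher by 1.5-fold and 0 lower in the high range of each library. Of all genes, 22.0% and 22.7% were higher. The 4 were Fcer1g and, named after their values were seen, the Fc receptors Fcgr1 and Fcgr3 and the TYROBP-paired lectin Clec5a. Fcer1g, the Fc receptor gamma chain and an ITAM adaptor like TYROBP, went from 225 to 1178 CPM in control and from 193 to 1260 in 4E-BP1-cKO cells, with ratios of 5.24 (4.67 to 5.90) and 6.52 (5.21 to 8.24). Between the libraries it stood at 688 and 815, a ratio of 1.19 (1.11 to 1.26). At 4.78 kb it is another compact gene. Clec5a, Fcgr1 and Fcgr3 span 10.9, 11.1 and 14.75 kb, and the part of span was not tested. Siglech and Csf1r, which also served as microglial markers, differed less. Siglech went from 462 to 649 in control cells, and the growth factor receptor gene Csf1r from 1291 to 1681, ratios of 1.41 and 1.30.

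Of the phosphatidylinositol 3-kinase, AKT and lipid phosphatase genes, 5 of 11 were lower by 1.5-fold and 1 higher in control cells, beside 36.3% and 22.0% of all genes, and 7 of 10 were lower and 0 higher in 4E-BP1-cKO cells, beside 39.2% and 22.7%. Inpp4b, a phosphatase of 792 kb that acts a step after INPP5D, went from 1370 to 658 CPM in control cells and from 1390 to 671 in 4E-BP1-cKO cells. Pik3r1, the regulatory subunit p85-alpha, went from 706 to 528 and from 964 to 436. None of this list passed 1.5-fold between the libraries.

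Of the Src-family and adaptor genes, 1 of 12 (Lat2, named after its value was seen) was higher in each library's high range, and 0 in control and 5 in 4E-BP1-cKO cells were lower. Blnk, an adaptor for PLCG2, had high over poor ratios of 0.680 (0.621 to 0.745) and 0.544 (0.470 to 0.627), Pik3ap1, an adaptor for phosphatidylinositol 3-kinase, 0.721 and 0.512, and Grb2 0.785 and 0.869. Among phospholipase, calcium and protein kinase C genes, 3 of 11 in control and 4 of 9 in 4E-BP1-cKO cells were lower, with Prkcb at 0.530 and 0.518, Itpr2 at 0.738 and 0.695, and Prkcd at 0.747 and 0.639. Of the inhibitory phosphatases and ITIM receptors 5 of 9 were higher in control cells and 0 of 7 in 4E-BP1-cKO cells. The 5, named after their values were seen, were Ptpn6, Ptpn11, Dok1, Pilra and Lilrb4a. In control cells Ptpn6 was at 2.12 (1.62 to 2.79), Dok1 at 3.77 (1.66 to 9.36) and Lilrb4a at 1.67 (1.24 to 2.26). Ptpn11 was at 1.53 (1.02 to 2.29) there, and Pilra at 1.90 (0.947 to 3.87), an interval that contained 1. In 4E-BP1-cKO cells Ptpn6 was at 1.398 (0.9401 to 2.095) and Ptpn11 at 0.9074 (0.3785 to 2.157). Dok1 was at 1.065 (0.448 to 2.553) and Lilrb4a at 0.8696 (0.474 to 1.585), and Pilra fell under the limit of 20 UMIs. Each of these 4E-BP1-cKO intervals contained 1 and overlapped the control interval, and a difference between the libraries was not tested. The 3 with most UMIs, Sirpa (0.828 and 0.667), Cd33 (0.917 and 1.17) and Cd300a (0.749 and 0.712), were not among the 5. The sheddases Adam10 and Adam17, which cleave TREM2 from the surface, were at 0.788 and 0.685, and at 0.803 and 0.675. Across all lists 14 of 57 genes were higher and 10 lower in control cells, and 7 of 52 higher and 17 lower in 4E-BP1-cKO cells, to be read beside the 22.0 and 36.3%, and the 22.7 and 39.2%, of all genes.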

How the data were processed

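Droplet single-cell RNA-seq (10x Genomics 3' v3.1) was analysed from 1 control and 1 4E-BP1-cKO library. The authors made the deposited UMI counts with Cell Ranger 8.0.1 (matrix header) on mm10, per the submitters' processing notes. The annotation release and the counting of introns are not given in the sources used here. Counts were not normalized. Kept barcodes had more than 300 genes and less than 5% mitochondrial UMIs. Counts were summed per library, range or cluster and expressed per 1000000 UMIs (CPM), with exact 95% Poisson intervals, conditional for ratios, and Clopper-Pearson intervals for shares. These cover counting error only. A library's share limit at a count of 0 (3 cells) was 0.262% in control and 0.674% in 4E-BP1-cKO cells. A gene was counted as different past 1.5-fold, over genes with at least 20 UMIs in the compared cells. The intervals were tried on simulated Poisson counts. These share the assumption of the intervals and lack the uneven spread over cells seen here, so only the calculation was checked.

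The members, lists, ranges and markers were chosen with earlier results of these data known. Clusters followed the study's pipeline in outline (Seurat 5.3.0, sctransform 0.4.2, RPCA integration, 20 components, resolution 1.4), without the 74 members and list genes. Doublets were kept; Scrublet (scanpy 1.11.5) marked 4 control and 11 4E-BP1-cKO cells, and their removal was an alternative. TMM factors came from edgeR 4.0.16. Likeness was Pearson's r of log2 levels over the clusters in which both libraries had at least 20 cells. Genes named beyond the members were, in each list, those past 1.5-fold between the libraries with at least 20 UMIs and an interval that leaves out 1, the 3 with most UMIs, and the likest genes (5 for Trem2 and Tyrobp, 1 for other members with at least 200 UMIs). Gene spans came from RefSeq (GRCm38.p6) and covered 94.1% of the 11704 genes tested between the libraries that are not ribosomal protein genes. Promoter windows came from RefSeq, GRCm38.p6. Some genes that this rule names, with 1 of the lists, are not reported here.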

Additional observations from a re-analysis of the deposited data

How the results depend on the processing

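No paired analysis was possible because each genotype has 1 library. For the same reason no replicate could be left out. Of 66 repeated counts, 57 stayed within 1.5 times their value and 9 did not. The count of members past 1.5-fold between the libraries went from 0 to 1 in thinned cells, where Hcst was at 1.76 on 8 and 5 cells. The count of pathway genes past 1.5-fold went from 3 to 5 with TMM factors, 12 in thinned cells and 9 with equal weight of cells. The 4E-BP1-cKO members lower in the high ribosomal range numbered 6 with limits of 3 and 10%. Between 4E-BP1-cKO cells low and high in early genes the count of 1 became 0 with the highest tercile against the lowest, with all kept cells and with scaling without the early genes. At resolution 0.8, 3 of the 5 genes most like Tyrobp were shared.

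Of 315 repeated ratios, 280 stayed in their interval, 32 moved out of it, and 3 more, whose interval had left out 1, changed direction. Some whose interval had contained 1 crossed 1 as well, among them Trem2 between cells low and high in early genes, at 1.23 in control and 1.36 in 4E-BP1-cKO cells when all kept cells entered. Tyrobp between the libraries was 0.966 with equal weight of the 3 ranges, and Tyrobp between cells low and high in early genes was 1.01 in control and 1.04 in 4E-BP1-cKO cells when all kept cells entered. Trem2 between the libraries was 1.37 in thinned cells and 1.28 with equal weight of cells, against 1.14. The alternative that leaves out barcodes with markers of other cell types was chosen after seeing the data. Some repeats in both tallies had an outcome fixed in advance. The setting without a minimum of UMIs could not change a member's ratio or the count of members between the libraries. TMM factors and the scalings that leave out genes multiplied all members' ratios in a comparison by 1 factor.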
